A study of Mus musculus with 4 samples.

Results

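The genes described are the metallothioneins and a group of genes of zinc transport, 8 genes chosen by their symbols (Mt1, Mt2, Mt3, Mtf1, Slc30a1, Slc30a2, Slc39a1 and Slc39a14) out of the 18193 genes that had a probe set of their own on the array. All 8 were found, on 17 probe sets, and 13 of these probe sets passed a filter on dim signals. The muscle was the gastrocnemius of male mice from a C57BL/6N and FVBN cross, and the methods give an age of 2 to 4 months for the mice of the study. Knockout mice carried floxed Foxo1, Foxo3 and Foxo4 alleles and a Cre transgene driven by the MLC1f promoter, which is active in type II but not in type I fibres, and are called FoxO1,3,4-/-. Control mice carried the same floxed alleles without Cre (FoxO1,3,4 f/f), although the sample labels call them wild type. Each genotype was either starved for 24 h with free access to water or fed without limit. RNA from 6 muscles of 3 mice was pooled per condition, and each of the 4 pools was read on 1 array, so that no difference given here has a replicate check and no test was possible.

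Metallothioneins are small cysteine-rich proteins that bind zinc and copper and buffer free zinc in the cell. Mt1 and Mt2 are expressed in most tissues and are known to be induced by zinc, by glucocorticoids and by inflammatory cytokines, whereas Mt3 is best known from brain and Mt4 from stratified epithelia. Mtf1 encodes the transcription factor that senses zinc and binds metal response elements in the promoters of Mt1, Mt2 and the exporter gene Slc30a1. The transporters work in opposite directions: proteins of the SLC30 (ZnT) family move zinc out of the cytosol, and those of the SLC39 (ZIP) family move it in. SLC39A14 (ZIP14) also carries iron and manganese and is induced by interleukin-6 in liver.

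The sequences before the starts of Mt1, Mt2 and Slc30a1 are printed because these 3 genes are the known targets of the zinc sensor, and they differed in how their signals moved. Capitals mark the metal response element core, which was searched as TGCACNC or TGCGCNC on both strands. The sequences are from RefSeq (GRCm38.p6), cover the 250 bases before the annotated start, and all lie on the plus strand. Mt1 is at chr8:94178839-94179088, Mt2 at chr8:94172368-94172617 and Slc30a1 at chr1:191906531-191906780. The 25 bases shown last (chr8:94179091-94179115) hold the other 2 matches of Mt1, which lie just after its annotated start.
Mt1: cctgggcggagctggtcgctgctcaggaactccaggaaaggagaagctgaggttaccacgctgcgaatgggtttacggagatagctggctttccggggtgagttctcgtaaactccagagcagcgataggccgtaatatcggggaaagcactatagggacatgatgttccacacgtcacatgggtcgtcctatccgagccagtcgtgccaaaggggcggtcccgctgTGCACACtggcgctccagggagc
Mt2: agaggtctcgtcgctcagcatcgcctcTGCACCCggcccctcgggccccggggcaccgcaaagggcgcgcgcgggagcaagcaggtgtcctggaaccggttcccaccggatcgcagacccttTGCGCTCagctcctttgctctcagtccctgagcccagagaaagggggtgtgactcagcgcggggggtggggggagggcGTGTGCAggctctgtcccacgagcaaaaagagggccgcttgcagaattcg
Slc30a1: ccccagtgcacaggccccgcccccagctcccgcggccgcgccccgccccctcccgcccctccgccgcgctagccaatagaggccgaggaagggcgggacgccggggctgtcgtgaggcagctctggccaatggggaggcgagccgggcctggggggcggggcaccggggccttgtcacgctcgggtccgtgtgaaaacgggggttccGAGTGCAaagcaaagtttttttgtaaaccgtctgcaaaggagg
Mt1, after the start: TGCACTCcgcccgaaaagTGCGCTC

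In the window from 250 bases before to 50 bases after the start, Mt2 had 4 matches to the core, Mt1 had 3, Slc30a1 and Slc30a2 had 2 each, Mt3 had 1, and Mtf1 and Slc39a1 had none. RefSeq promoters were matched for 7 of the 8 genes by symbol, all but Slc39a14. Of the 32851 RefSeq promoters of this length, 25.7% held at least 1 match, 7.11% at least 2, 1.97% at least 3 and 0.517% at least 4. Within this window the 3 matches of Mt1 lay from base -23 before the annotated start to base 27 after it. Those of Mt2 lay from base -223 to base 11. Each window ends 50 bases after the annotated start, so it may leave out further cores. The spacing of all the cores of either gene is thus not known. The antioxidant response element letters TGACNNNGC, which 12.4% of promoters held at least once, were found once each before the starts of Mt2, Slc30a1 and Slc39a1. They did not overlap a metal response element core. Neither the forkhead letters GTAAACA, held by 3.65% of promoters, nor the full palindromic glucocorticoid response element, held by 3 promoters in all, was found in any of the 7 windows on either strand. A match describes letters and is no measure of binding. Counts and positions depend on the annotated start used for each gene, and bases beyond each window were not searched.

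**Figure D1:**
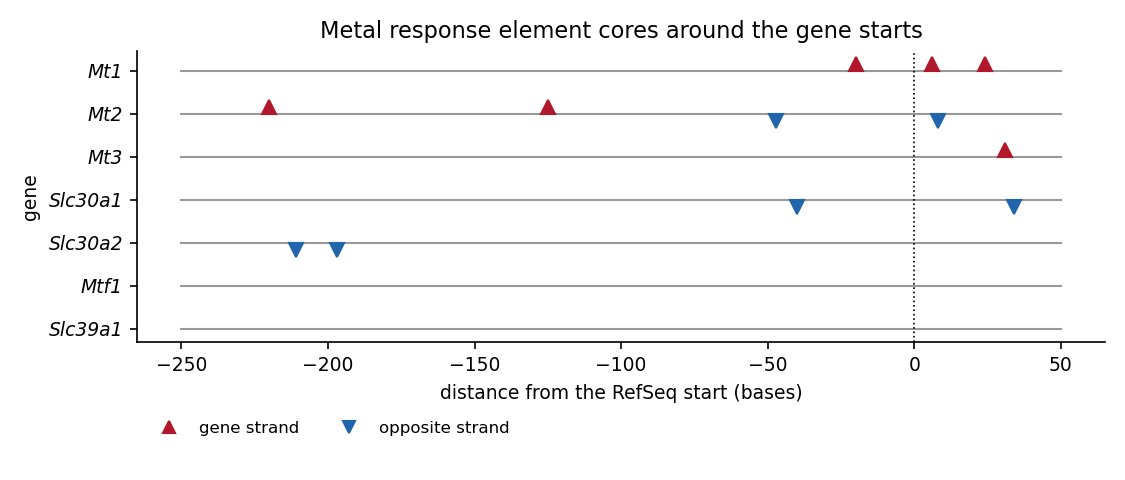
Position of each metal response element core (triangles, pointing up for the gene's strand and down for the opposite strand) against the distance in bases from the RefSeq start (dotted line), for the 7 genes with a promoter sequence. Mt2 has 4 matches spread over its window, the 3 of Mt1 lie within 27 bases of its annotated start, and Mtf1 and Slc39a1 have none.

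The values are MAS5 signals, a summary of the brightness of a gene's probes on a linear scale, used as deposited by the authors. A probe set passed if it reached the median of its array on at least 1 of the 4 arrays. Array medians lay between 22.9 and 26.3. Each gene was read from its brightest passing probe set, by the mean over arrays, which left 12565 genes. A gene was called higher or lower at a ratio of 1.5, the threshold in the methods. The 4 comparisons are read from the same 4 arrays, each array entering 2 of them, so that they are not independent of each other. The deleted gene Foxo4 had signals of 34.3 in starved knockout, 31.3 in fed knockout, 291.3 in starved control and 296.9 in fed control muscle, and Foxo1 had 165.5, 185.2, 554.4 and 303.8 in the same order of groups. Foxo3, at 460.9, 297.3, 477.8 and 250.1 in that order, showed no loss on its brightest probe set, whose place relative to the deleted part was not analysed here. Markers of fast fibres were bright on all arrays, with 9 of 9 at signals of 9282.5 or more. Hair shaft genes were not evenly present: 10 of 10 measured were higher on the starved knockout and fed control arrays than on both others, with summed signals of 1510.6 in starved knockout, 110.5 in fed knockout, 54.9 in starved control and 1074 in fed control muscle. Epidermis genes were lowest on the fed control array in 7 of 8 cases, with summed signals of 844.1, 1118.6, 806.2 and 337.9 in the same order of groups. The lowest single signal in either of these 2 lists was 0.3.

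Starvation raised Mt1 and Mt2 in muscle of both genotypes, and the rise of Mt2 was larger in knockout than in control muscle. In knockout muscle 3 of the 8 genes were higher after starvation at 1.5-fold (Mt1, Mt2 and Slc30a2), where 7.36% of all genes were, and 1 was lower (Mtf1), where 9.45% were. In control muscle 4 were higher (Mt1, Mt2, Mt3 and Slc39a14), where 9.21% of all genes were, and 2 were lower (Mtf1 and Slc39a1), where 14.2% were. Mt1 and Mt2 were the pair higher in both genotypes, as were 2.63% of all genes, and both were also past 2-fold in both, as were 0.86%. At 2-fold the same 3 and 4 genes were higher on starvation in knockout and control muscle, against 3.29% and 3.73% of all genes, and 0 were lower, against 3.21% and 4.81%. Slc30a1 was the 1 gene under 1.5-fold either way in both genotypes, as were 68.5% of all genes. The median log2 ratio of starved over fed signal of the 8 genes was 0.25 in knockout and 0.82 in control muscle, against -0.06 and -0.11 over all genes in the same order of genotypes.

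**Figure D2:**
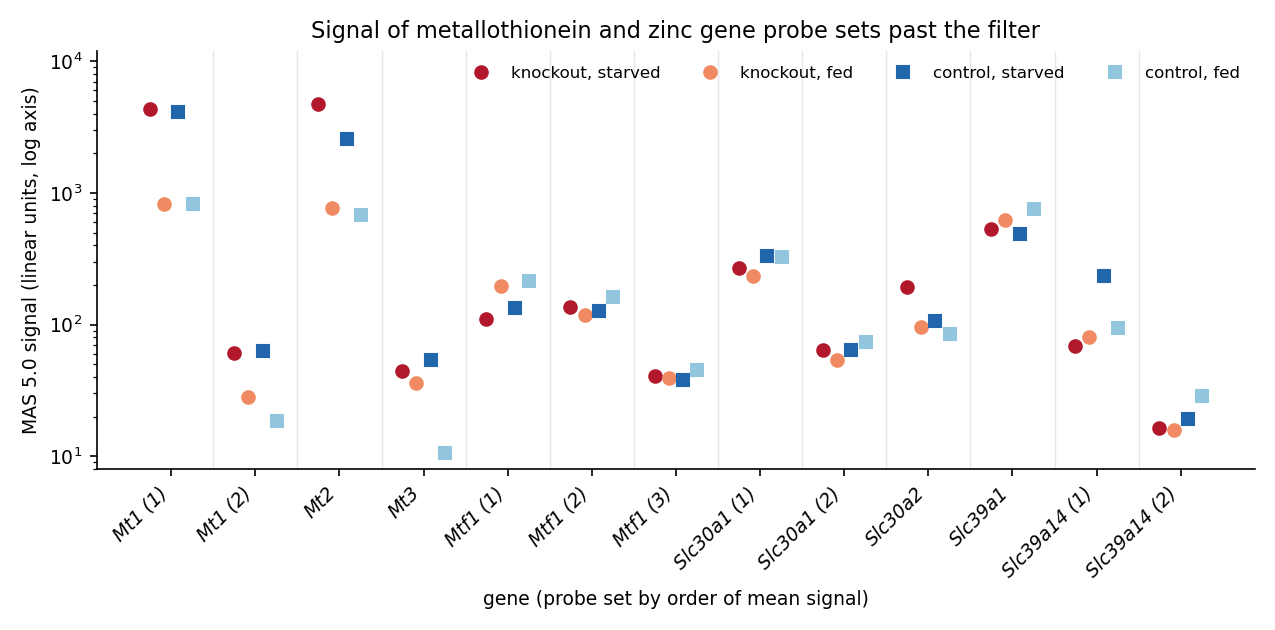
MAS5 signal, on a log axis, of each of the 13 probe sets past the filter on the 4 arrays (circles for knockout and squares for control muscle, dark for starved and light for fed, 1 pooled array each). Where a gene has several probe sets they are numbered by mean signal, and the brighter Mt1 probe set is at 4106.9 or more on both starved arrays and at 825.1 or less on both fed arrays.

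Mt1 was measured by probe set 1422557_s_at, whose suffix in the maker's naming marks probes that can match more than 1 transcript, although it is annotated to Mt1 alone. Its signal was 4314.0 in starved knockout, 825.1 in fed knockout, 4106.9 in starved control and 824.7 in fed control muscle. Both starved arrays stood far above both fed arrays, and within each feeding state the genotypes were nearly level. The ratio of starved over fed signal was 5.23 in knockout muscle, rank 117 of 12565 genes, and 4.98 in control muscle, rank 83. Knockout over control was 1.05 in starved and 1.00 in fed muscle. A dimmer Mt1 probe set, 1451612_at, had signals of 61.3 in starved knockout, 28.1 in fed knockout, 62.8 in starved control and 18.7 in fed control muscle. There the starvation ratio was 2.18 in knockout and 3.36 in control muscle, so that both probe sets rose in both genotypes but ordered the genotypes differently. Knockout over control on the dimmer probe set was 0.98 in starved and 1.50 in fed muscle. In whole muscle, more RNA per fibre and more cells that express a gene cannot be told apart. Summed signals of 6 fibroblast markers were lower on both starved arrays, at 20658.5 in starved knockout, 27102.2 in fed knockout, 22392.7 in starved control and 30444.1 in fed control muscle. Those of 7 macrophage markers were 2896.4, 3542.5, 3960.9 and 4592.4 in the same order, also lower when starved in each genotype. Those of the 5 adipocyte markers measured were higher when starved within each genotype. They were 16870.2 in starved knockout, 16020.1 in fed knockout, 20795.0 in starved control and 18483.6 in fed control muscle. Of these, Fabp4 alone was at 13452.5, 11978.6, 14974.7 and 13375.9 in the same order of groups. Starvation ratios in knockout and control muscle were 2.02 and 2.11 for the lipid droplet gene Cidec, 1.99 and 0.84 for Lep and 1.12 and 1.12 for Fabp4. They were 0.74 and 1.13 for Adipoq and 0.60 and 0.69 for Retn, so that the 5 markers did not move together. Summed signals of 3 red cell markers were 92.6 in starved knockout, 70.6 in fed knockout, 163.5 in starved control and 78.4 in fed control muscle. The part of any of these cell types in the Mt1 signal was not tested.

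Mt2 (1428942_at) was at 4758.9 in starved knockout, 766.8 in fed knockout, 2574.6 in starved control and 681.1 in fed control muscle. The starved knockout array stood highest, the starved control array next, and both fed arrays were close together. Mt2 rose 6.21-fold on starvation in knockout muscle, rank 103 of 12565, and 3.78-fold in control muscle, rank 131. In starved muscle Mt2 was 1.85 times as high in knockout as in control muscle, and in fed muscle the ratio was 1.13. The starvation ratio in knockout muscle was thus 1.64 times that in control muscle, a size of at least 1.5 that 12.3% of all genes reached and, of the 8 genes, Mt2 and Slc30a2 did, whereas for Mt1 this quotient was 1.05 on its brighter and 0.65 on its dimmer probe set. Hair shaft genes were also highest on the starved knockout array in 8 of 10 cases. Their summed signal on the fed control array was 1074, and the Mt2 signal there was 681.1, its lowest. The part of hair in the Mt2 signal was not tested.

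Comparisons between genotypes depend on the scale of the arrays, which was lower in knockout muscle. Over all genes the median ratio of knockout over control signal was 0.894 in starved and 0.873 in fed muscle, and once array medians were made equal the Mt2 ratio in starved muscle was 2.10 and that of Mt1 was 1.19. At 1.5-fold, 6.37% of all genes were higher and 14.5% lower in knockout than in control muscle when starved, against 10.1% higher and 8.32% lower once array medians were made equal. In fed muscle the shares were 3.37% higher and 11.3% lower, against 4.78% and 7.19% after that scaling. Of the 8 genes, 2 were higher in starved knockout than in starved control muscle (Mt2 and Slc30a2) and 1 was lower (Slc39a14), and in fed muscle 1 was higher (Mt3) and 0 were lower, under each of the 3 scalings tried as well as without scaling. At 2-fold, Slc39a14 alone remained in starved muscle, with 0 higher, where 3.02% of all genes were higher and 4.52% lower. In fed muscle Mt3 alone remained, where 1.74% were higher and 3.55% lower.

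**Figure D3:**
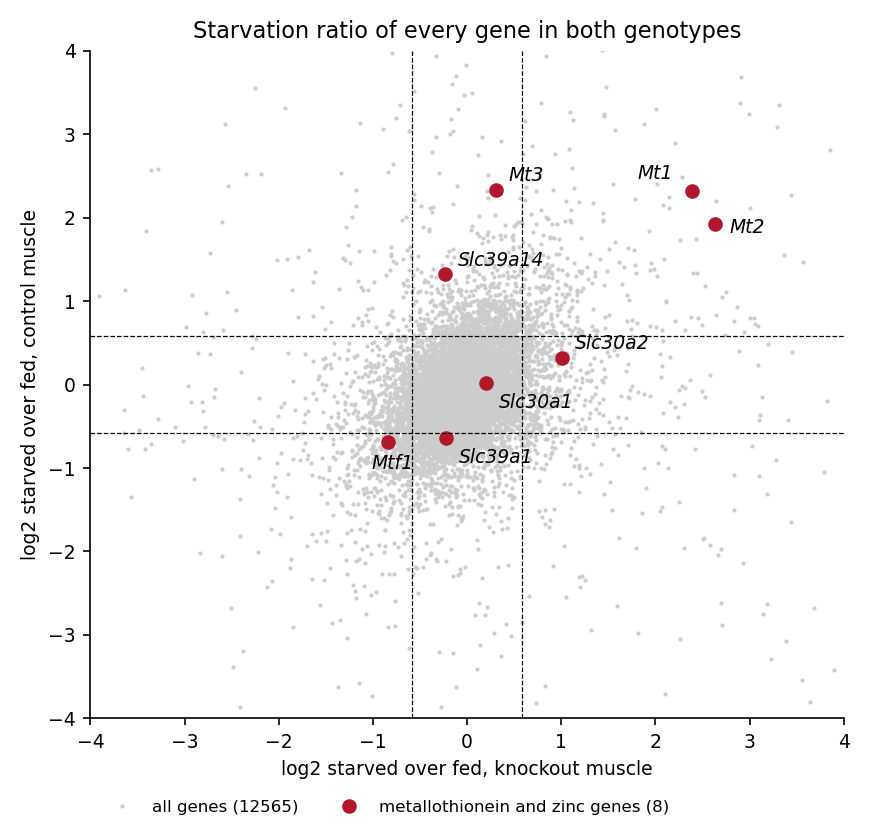
Log2 ratio of starved over fed signal in knockout muscle (horizontal axis) and in control muscle (vertical axis) for all 12565 genes (grey, 74 of them outside the axes) and for the 8 metallothionein and zinc genes (red). Dashed lines mark 1.5-fold; Mt1 and Mt2 lie beyond it in both genotypes, Slc30a2 to the right of it only, and Mt3 and Slc39a14 above it only.

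Mt3 was dim. Its probe set (1420575_at) was at 44.4 in starved knockout, 35.9 in fed knockout, 53.5 in starved control and 10.6 in fed control muscle. The fed control signal stood apart from the other arrays and lay below the median of its array, at percentile 31.3. The starvation ratio of 5.05 in control muscle and the ratio of 3.39 of knockout over control in fed muscle therefore both rest on that 1 signal, and with 16 added to each signal they were 2.61 and 1.95. In knockout muscle the starvation ratio of Mt3 was 1.24. Epidermis genes were likewise lowest on the fed control array, as given above, and their part in the Mt3 signal was not tested.

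Mt4, the remaining gene of the metallothionein cluster on chromosome 8, followed a course unlike those of Mt1, Mt2 and Mt3. Its signal was 113.5 in starved knockout, 45.7 in fed knockout, 18.4 in starved control and 141.4 in fed control muscle. Mt4 rose 2.48-fold on starvation in knockout muscle whereas the ratio of starved over fed signal was 0.13 in control muscle, so that the genotypes moved in opposite directions. Its 2 high arrays were the starved knockout and the fed control array, the same on which 10 of 10 hair shaft genes were high. The hair shaft keratin gene Krt25, for example, was at 318.5, 18.2, 6.9 and 252.9 in starved knockout, fed knockout, starved control and fed control muscle. The part of hair in the Mt4 signal was not tested.

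**Figure D4:**
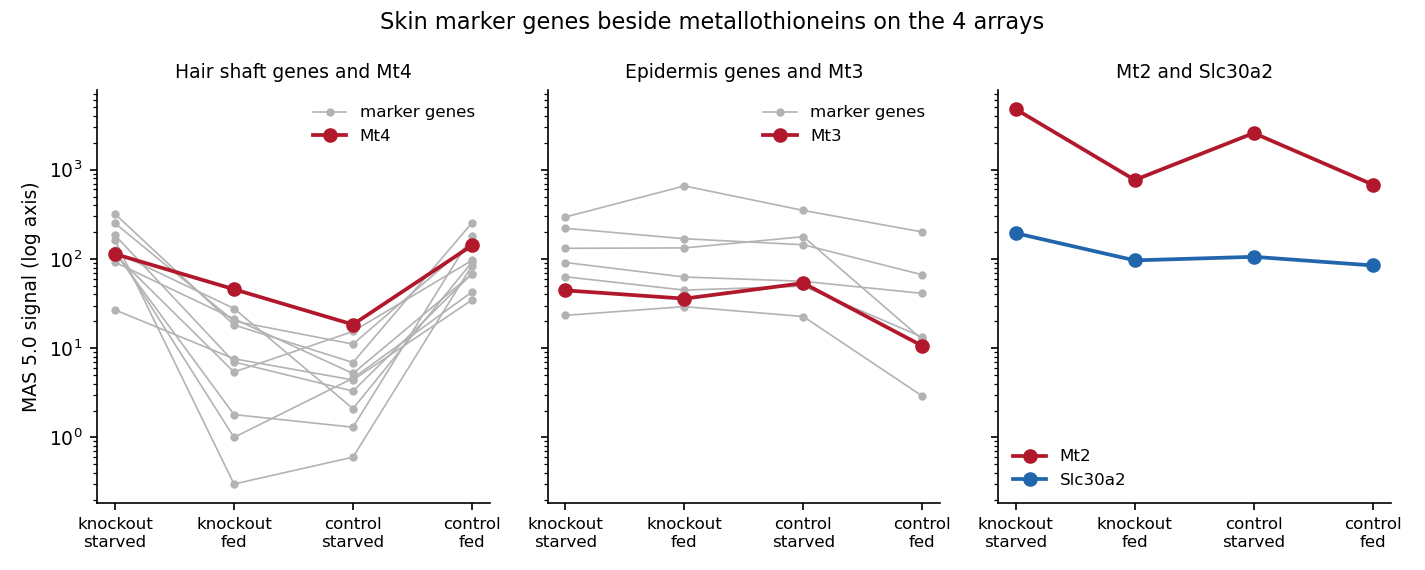
MAS5 signals on a log axis on the 4 arrays, with knockout left of control muscle and lines joining the signals of 1 gene: hair shaft genes (grey) with Mt4, epidermis genes past the filter (grey) with Mt3, and Mt2 with Slc30a2. Mt4 and the hair shaft genes are high on the starved knockout and fed control arrays, Mt3 and most epidermis genes are lowest on the fed control array, and Mt2 and Slc30a2 are highest on the starved knockout array and lowest on the fed control array.

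The zinc sensor gene Mtf1 did not rise with the metallothioneins. Its brightest probe set (1428979_at) had signals of 110.0 in starved knockout, 196.5 in fed knockout, 134.0 in starved control and 215.8 in fed control muscle. Both starved arrays were below both fed arrays, with a starvation ratio of 0.56 in knockout and 0.62 in control muscle, past the threshold in both genotypes. The other probe sets of Mtf1 past the filter did not repeat this. The second (1418333_at) was at 136.4, 118.2, 126.7 and 161.2 in starved knockout, fed knockout, starved control and fed control muscle, with starvation ratios of 1.15 and 0.79 in knockout and control muscle. The third (1429170_a_at) lay between 37.8 and 45.4 on the 4 arrays. A fall of Mtf1 past 1.5-fold was thus seen on 1 of its 3 probe sets past the filter. Knockout over control on the brightest was 0.82 in starved and 0.91 in fed muscle, and the fed ratio turned to between 1.01 and 1.05 under the 3 scalings.

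Slc30a1, which encodes the zinc exporter ZnT1 of the plasma membrane, differed little with starvation. Its probe set 1436164_at was at 268.1 in starved knockout, 232.9 in fed knockout, 332.4 in starved control and 327.6 in fed control muscle. Feeding state made little difference in either genotype, with starvation ratios of 1.15 in knockout and 1.01 in control muscle, while both knockout arrays lay below both control arrays. Knockout over control was 0.81 in starved and 0.71 in fed muscle, or 0.92 and 0.79 once array medians were made equal. The dimmer probe set (1422786_at), at 64.4, 53.5, 64.3 and 73.8 in starved knockout, fed knockout, starved control and fed control muscle, also stayed under 1.5-fold in every comparison. Slc30a1 was thus under the threshold in all 4 comparisons, as were 58.4% of all genes. Its promoter window holds 2 of the metal response element cores printed or counted above.

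Slc30a2, which encodes ZnT2, a transporter that loads zinc into vesicles, was high on 1 array. Its signal (1427339_at) was 194.2 in starved knockout, 96.3 in fed knockout, 105.6 in starved control and 84.5 in fed control muscle. The starved knockout array stood above the 3 others, which lay close together. The ratio of starved over fed signal was 2.02 in knockout and 1.25 in control muscle, and that of knockout over control was 1.84 in starved and 1.14 in fed muscle. Slc30a2 and Mt2 thus passed 1.5-fold for the same arrays in the comparison of genotypes. Slc30a2 has no second probe set by which to check it, and the part of hair in its signal on the starved knockout array was not tested.

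Among the importers, Slc39a14 rose on starvation in control muscle and not in knockout muscle. Its brightest probe set (1427035_at) was at 68.4 in starved knockout, 80.5 in fed knockout, 234.6 in starved control and 93.6 in fed control muscle. The starved control array stood alone, and the 3 other arrays lay within 68.4 and 93.6. The starvation ratio was 0.85 in knockout and 2.51 in control muscle, and knockout over control was 0.29 in starved and 0.86 in fed muscle. A rise of at least 1.5-fold in control muscle with a ratio under 1.5 in knockout muscle was seen for 6.58% of all genes, and in its difference between starvation ratios 1.97% of genes lay below Slc39a14. The quotient of the starvation ratios, knockout over control, was 0.34 for Slc39a14 and 0.25 for Mt3, and 10.4% of all genes were lower by at least 1.5-fold in it. A dim second probe set (1425649_at), at 16.4, 15.9, 19.3 and 28.9 in starved knockout, fed knockout, starved control and fed control muscle, did not show this, and the other 2 were below the filter on every array, with no signal above 15.4.

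Slc39a1 encodes the broadly expressed importer ZIP1. Its 1 probe set (1424424_at) was at 529.1 in starved knockout, 618.2 in fed knockout, 486.3 in starved control and 755.7 in fed control muscle. Both starved arrays were below both fed arrays. The starvation ratio was 0.86 in knockout and 0.64 in control muscle, the second just past the threshold, and it was 0.67 and 0.68 in control muscle once trimmed means were made equal and after quantile normalization. Knockout over control was 1.09 in starved and 0.82 in fed muscle.

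In both transporter families together, 11 of the 19 genes past the filter stayed under 1.5-fold in all 4 comparisons, or 57.9%, against 58.4% of all genes. Among the others, Slc39a4 and Slc39a8 passed the filter only through the array on which they were high. Of 10 ZnT genes 8 passed the filter, of which 1 was higher and 0 lower on starvation in knockout muscle (Slc30a2), and 1 higher and 0 lower in control muscle. Over all genes, 7.36% were higher and 9.45% lower in knockout muscle, and 9.21% and 14.2% in control muscle. The ZnT gene higher in control muscle was Slc30a3, the transporter that fills synaptic vesicles with zinc, at 98.5 in starved knockout, 74.3 in fed knockout, 128.1 in starved control and 61.9 in fed control muscle, with starvation ratios of 1.33 and 2.07 in knockout and control muscle. Slc30a4 was lower in fed knockout than in fed control muscle on signals without scaling, at 261.1 against 410.0, a ratio of 0.64. That is close to the threshold, and the median ratio over all genes in this comparison was 0.873. The call was not made again after scaling and may depend on the scale of the arrays. Between genotypes, without scaling, 1 ZnT gene was higher and 0 lower in starved muscle, where 6.37% and 14.5% of all genes were. In fed muscle 0 were higher and 1 lower, where 3.37% and 11.3% were. With 8 genes, nothing about the family is read from these counts. The median log2 ratio of the 8 ZnT genes on starvation was 0.23 in knockout and -0.03 in control muscle, against -0.06 and -0.11 over all genes.

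Of 14 ZIP genes 11 passed the filter. On starvation 1 was higher and 1 lower in knockout muscle, where 7.36% and 9.45% of all genes were. In control muscle 1 was higher and 2 were lower, where 9.21% and 14.2% were. The median log2 ratio of the 11 ZIP genes on starvation was -0.04 in knockout and -0.29 in control muscle, against -0.06 and -0.11 over all genes. Slc39a4, the intestinal zinc importer, had 25.8 in starved knockout, 10.0 in fed knockout, 6.7 in starved control and 8.2 in fed control muscle, so that only 1 of its signals reached the median of its array and its ratio of 2.58 in knockout muscle compares dim signals. Slc39a11 fell in knockout muscle, at 55.1 starved against 100.2 fed, a ratio of 0.55, with 0.92 in control muscle. Slc39a8, which encodes ZIP8, was dim, at 19.9, 15.0, 14.7 and 26.3 in starved knockout, fed knockout, starved control and fed control muscle, with starvation ratios of 1.33 and 0.56 in knockout and control muscle. It reached the median of its array on the fed control array alone. Between genotypes, without scaling, 1 ZIP gene was higher and 1 lower in starved muscle, where 6.37% and 14.5% of all genes were. In fed muscle 0 were higher and 1 lower, where 3.37% and 11.3% were. The gene higher in starved knockout muscle was Slc39a4 and the gene lower in fed knockout muscle was Slc39a8, and each passed the filter only through the array on which it was high, so that nothing is read from these counts or from their starvation counts.

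**Figure D5:**
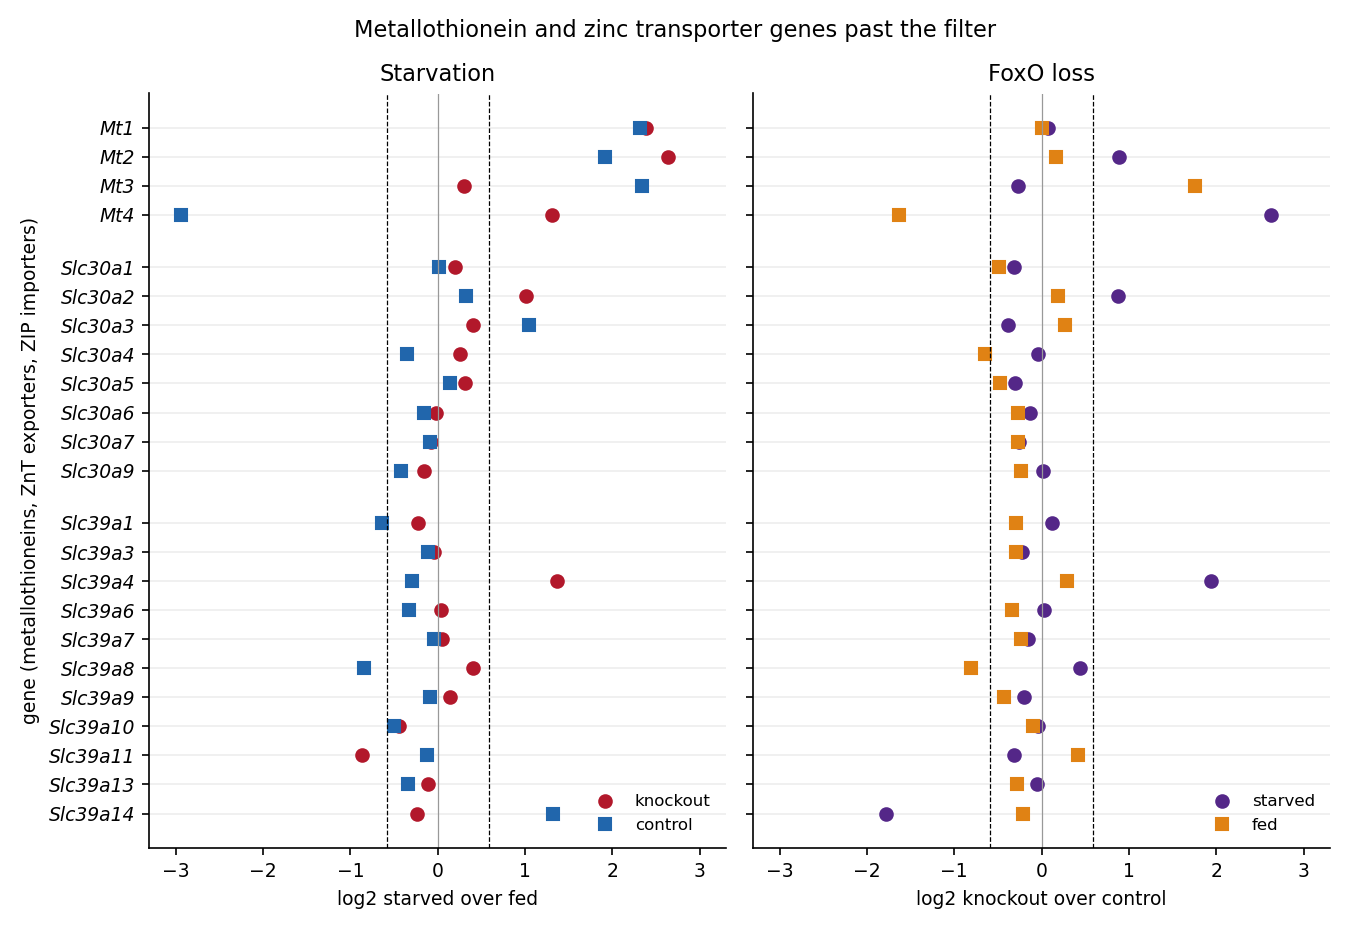
Log2 ratios of the metallothionein, ZnT and ZIP genes past the filter, from the brightest probe set of each: starved over fed in knockout (red circles) and control (blue squares) muscle on the left, and knockout over control in starved (purple circles) and fed (orange squares) muscle on the right. Dashed lines mark 1.5-fold. The metallothioneins, Slc39a4 and Slc39a14 lie farthest out, followed by Slc30a3 and Slc30a2.

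Other genes known to respond to metals were listed outside the 8 genes above, and all 9 passed the filter. On starvation 1 was higher in knockout and 3 in control muscle, where 7.36% and 9.21% of all genes were, and 0 were lower in either. Their median log2 ratio was -0.06 in knockout and 0.19 in control muscle, against -0.06 and -0.11 over all genes. The cell cycle inhibitor gene Cdkn1a was higher in both genotypes, at 2347.1 in starved knockout, 376.8 in fed knockout, 1218.2 in starved control and 264.4 in fed control muscle. The heat shock genes Hspa1a and Hspa1b, which are close copies whose probes cannot be taken as separate, had starvation ratios of 1.38 and 1.30 in knockout muscle and 1.75 and 1.86 in control muscle. Without scaling, Hmox1, heme oxygenase, was 0.45 of control in starved and 0.57 in fed knockout muscle, and Gclc, of glutathione synthesis, was 0.59 and 0.78.

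Genes of copper handling, the other metal that metallothioneins bind, were counted in the same way. Of 12 measured, 0 were higher and 0 lower on starvation in knockout muscle, against 7.36% and 9.45% of all genes. In control muscle 1 was higher and 3 were lower, against 9.21% and 14.2% of all genes. Their median log2 ratio was -0.03 in knockout and -0.35 in control muscle, against -0.06 and -0.11 over all genes. Slc31a1, the copper importer, was at 121.6 in starved knockout, 126.4 in fed knockout, 79.7 in starved control and 134.9 in fed control muscle, low on the starved control array alone. Cox11 and Commd1 had starvation ratios of 0.87 each in knockout muscle and of 0.57 and 0.66 in control muscle, and Sco2 had 1.17 in knockout and 2.03 in control muscle.

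Glucocorticoids and interleukin-6 are known inducers of metallothioneins, and genes induced by each were listed for comparison. Of 12 glucocorticoid-induced genes, 8 were higher on starvation in knockout and 10 in control muscle, where 7.36% and 9.21% of all genes were, and none was lower. Their median log2 ratio was 0.68 in knockout and 1.39 in control muscle. In starved muscle 7 of the 12 were lower in knockout than in control muscle and 1 was higher, on signals without scaling. Shares of all genes on the same signals were 14.5% and 6.37%, and the list was not counted again after scaling. The 1 higher gene was Fkbp5, a co-chaperone of the glucocorticoid receptor. Its signal was 2447.8 in starved knockout, 453.9 in fed knockout, 1372.4 in starved control and 408.7 in fed control muscle. In starved muscle, knockout over control was 1.85 for Mt2. For Mt1 it was 1.05 on the brighter and 0.98 on the dimmer probe set. Cebpd, at 0.26 of the control signal in starved knockout muscle, Klf15 at 0.37, Errfi1 at 0.43 and Ddit4 at 0.51 were among the 7. Pdk4, which restrains glucose oxidation, was at 8836.0 in starved knockout, 1099.2 in fed knockout, 13494.9 in starved control and 3111.8 in fed control muscle.

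Of 11 genes of the interleukin-6 and STAT3 list past the filter, 3 were higher and 3 lower on starvation in knockout muscle, and 5 were higher and 1 lower in control muscle. Over all genes, 7.36% were higher and 9.45% lower in knockout muscle, and 9.21% and 14.2% in control muscle. Lcn2, an iron-binding acute phase protein, was at 520.8 in starved knockout, 50.6 in fed knockout, 111.5 in starved control and 38.1 in fed control muscle. In starved muscle 1 of the 11 was higher in knockout than in control muscle and 5 were lower, without scaling. Over all genes 6.37% were higher and 14.5% lower. The higher gene was Lcn2, at 4.67 of the control signal, and Pim1 at 0.30, Il6ra at 0.41 and Socs3 at 0.45 were among the 5. Slc39a14 was at 0.29. Il6ra, the interleukin-6 receptor, had starvation ratios of 2.14 and 3.92 in knockout and control muscle, Pim1 had 1.00 and 2.44, Serpina3n had 2.32 and 1.52, and Socs3 had 0.51 and 1.16, in the same order of genotypes.

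Likeness over the 4 arrays was measured as the distance between log2 signals after each gene's mean was taken off, over 7418 other genes at or above the 75th percentile on 1 array or more. Closest to Mt1 were Angptl4, a fasting-induced inhibitor of lipoprotein lipase, at a distance of 0.22, Cxcl13 at 0.27, Fhl3 at 0.47, Fkbp5 at 0.61 and Lox at 0.69. Angptl4 had signals of 591.2 in starved knockout, 121.7 in fed knockout, 698.4 in starved control and 125.0 in fed control muscle. Closest to Mt2 were Fkbp5 at 0.19, Cdkn1a at 0.28, the lipid droplet gene Plin5 at 0.48, Fhl3 at 0.69 and the fructose bisphosphatase gene Fbp2 at 0.77. Mt1 and Mt2 were 0.59 apart, farther than each was from its 3 closest genes, and the whole of this comparison rests on 4 arrays.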

How the data were processed

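Each Affymetrix mouse array was hybridized with 1 pool of RNA per condition (6 muscles of 3 mice). The deposited values are MAS5 signal intensities on a linear scale, made by the authors. Affymetrix Expression Console is also named in the submitters' processing notes. No source used here gives the target to which arrays were scaled. From these, ratios and log2 ratios were computed in Python 3.11.15 (pandas 2.3.3, numpy 2.4.6), and plots were drawn in matplotlib 3.10.9. Signals at 0 were set to 0.1. Of 45037 probe sets other than controls, 34945 had 1 gene in the platform annotation, 932 several and 9160 none, and those with several name no gene here. For 34741 the symbol was brought up to date by gene identifier. The median and filter are as given above, promoters and motif shares are from RefSeq, and the script that makes the calls was first tested on simulated data.

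With 1 array per group there is no SD, no p-value and no test, so that precision is limited by the number of arrays. The genes and the lists were chosen with earlier results of these data known. Genes outside the 8 were named by size within each list (up to 4 for starvation and up to 4 for genotype, past 1.5-fold) or by likeness to Mt1 or Mt2 (5 each). Krt25 and the adipocyte markers were named after their values were seen. Alternatives were 3 array scalings, an offset of 16, 2 filters, 2 choices of probe set and a 2-fold threshold.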

Additional observations from a re-analysis of the deposited data

Results flagged for a closer look

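Of the 8 genes and the others named from the metal, glucocorticoid and interleukin-6 lists, Mt4 was the only one that passed 1.5-fold on starvation in opposite directions in the genotypes, with a log2 ratio of 1.31 in knockout and -2.94 in control muscle. The difference was not tested, since each group has 1 array. Its high arrays were those on which 10 of 10 hair shaft genes were high, and their part in the Mt4 signal was not tested.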

How the results depend on the processing

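No paired analysis was possible because each group has 1 array, and no array could be left out for the same reason. The counts of genes higher on starvation stayed within 1.5 times under all 9 alternatives, at 3 in knockout muscle and 3 or 4 in control muscle. The count lower on starvation in control muscle was 2, but 1 with the arrays scaled to the same trimmed mean, 1 after quantile normalization, 1 with the mean over all probe sets and 0 at 2-fold. The count lower on starvation in knockout muscle was 1, but 2 with the mean over all probe sets and 0 at 2-fold. In starved muscle, knockout against control, the count lower was 2 instead of 1 with the mean over all probe sets, and the count higher was 0 instead of 2 at 2-fold. In fed muscle the count higher was 0 instead of 1 with the filter at the 75th percentile, which leaves out Mt3. Of 315 values of single genes under the alternatives, 304 kept their side of 1.5-fold and moved by less than 1.5-fold, and 11 did not. None that had passed 1.5-fold changed sign. Many of the 304 are no check. Both filters and the choice by fed signal left every gene they measured on the same probe set, with the same values. The mean over all probe sets also changes nothing for a gene with 1 probe set. The mean over all probe sets also takes in those below the filter. With it, the log2 ratio of knockout over control of Slc39a14 in fed muscle was 0.49 instead of -0.22. Its probe sets had -0.22 and -0.86 past the filter and 0.57 and 2.47 below it. The log2 starvation ratio of Mtf1 in control muscle was -0.03 with this mean. Its probe sets had -0.69, -0.35 and -0.26 past the filter. Those below the filter had 0.36 and 0.79, at signals of 14.8 or less on the 4 arrays. The dim signals of Mt3 and Slc39a4 limit what their ratios can show.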
